A study of Mus musculus with 2 samples.

Results

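Peaks of open chromatin assigned to microRNA genes were examined in mouse cardiac progenitor cells (CPCs). They are the distinct intervals of the peak list whose assigned gene symbol begins with Mir followed by a number or with Mirlet, at any distance, and 651 of 26232 peaks met that rule (2.48%, 95% Wilson confidence interval 2.30 to 2.68%). The peaks carried 377 symbols, of which 372 named microRNA genes and 5 named host transcripts, the longer RNAs from which a microRNA is cut. The assay was ATAC-seq, which reads out accessible DNA as the places where a Tn5 transposase can insert its adapters. The cells were E14 Tg(Nkx2-5-EmGFP) embryonic stem cells, which carry a green fluorescent reporter of the early heart factor Nkx2-5, taken at day 5 of directed differentiation. The labels give the strain as C57BL/6, although E14 cells are known to come from another strain. Both samples belonged to 1 group without knockdown and came from independent differentiations. A sort on the reporter is described for the RNA libraries and not for these cells, so cells outside the cardiac lineage may be among them. The Isl1 knockdown cells that the series names were not analysed here.

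The values are positions: the start and end of each peak on mm9, called in both replicates, and the signed distance from the assigned start to the peak midpoint. There was no score and no value for a single replicate, so neither the depth nor the error between replicates is known and no test between samples was possible. The intervals given with shares and medians cover counting error over peaks or genes only, and neighbouring peaks and clustered hairpins are not independent. A gene without a peak in the list was not shown to be closed. The labelled cell type was checked at its markers. All 5 cardiac progenitor genes had an assigned peak, and for 4 of them (Isl1, Nkx2-5, Mef2c and Tbx5) a peak midpoint lay within 1 kb of the assigned start. The nearest peak of Gata4 lay at 1036 bp. Among genes of other cells, the neural regulators Sox1 and Pax6 had a peak within 1 kb of the start (24 and 368 bp), whereas none of the 2 pluripotency, 3 endothelial and blood and 2 liver genes did. An assigned peak at any distance was also found for 3 of 3 endothelial and blood, 2 of 2 neural, 1 of 2 liver and 1 of 2 pluripotency genes. That measure therefore did not set the cardiac genes apart. The part of neural cells in the results was not tested.

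MicroRNAs are short RNAs that pair with messenger RNAs through a seed near their 5′ end and lower their stability and translation. Each is cut from a hairpin in a longer primary transcript, which may be a host gene for a protein, a noncoding RNA, or a transcript that yields a whole cluster of hairpins. In the heart, miR-1 and miR-133 act in muscle differentiation, miR-208 and miR-499 are encoded within myosin heavy chain genes, and the miR-302 and miR-290 clusters belong to pluripotent and early embryonic cells. The annotated start of a microRNA gene is the 5′ end of the hairpin, not the start of the primary transcript. Of 537 peaks whose hairpin could be placed on mm9 by its sequence, 535 had a deposited distance equal to the distance from the hairpin 5′ end within 1 bp. A distance below is therefore a distance to a hairpin, and a promoter that drives a microRNA from far upstream can carry the symbol of another gene.

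The following mature microRNAs, from RefSeq (GRCm38.p6), stand for the seed families that the results turn on. Each is written 5′ to 3′ with the seed, bases 2 to 8, in capitals. They are grouped so that shared seeds can be seen across hairpins that lay over, beside or far from a peak. For mmu-miR-1a-3p, mmu-miR-133a-3p and mmu-miR-301b-3p only the names are given.
mmu-miR-302b-3p: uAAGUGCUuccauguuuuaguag
mmu-miR-302c-3p: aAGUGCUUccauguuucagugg
mmu-miR-291a-3p: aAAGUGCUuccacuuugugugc
mmu-miR-294-3p: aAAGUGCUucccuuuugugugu
mmu-miR-295-3p: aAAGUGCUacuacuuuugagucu
mmu-miR-17-5p: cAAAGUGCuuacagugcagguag
mmu-miR-20a-5p: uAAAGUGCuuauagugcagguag
mmu-miR-106b-5p: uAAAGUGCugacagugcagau
mmu-miR-93-5p: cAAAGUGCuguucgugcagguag
mmu-miR-25-3p: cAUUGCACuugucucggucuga
mmu-miR-92b-3p: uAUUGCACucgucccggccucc
mmu-miR-363-3p: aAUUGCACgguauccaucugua
mmu-miR-367-3p: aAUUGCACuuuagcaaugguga
mmu-miR-130a-3p: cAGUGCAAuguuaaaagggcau
mmu-miR-130b-3p: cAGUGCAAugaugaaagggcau
mmu-let-7e-5p: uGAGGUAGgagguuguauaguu
mmu-let-7i-5p: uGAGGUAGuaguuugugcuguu
mmu-let-7d-5p: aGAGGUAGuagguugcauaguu
mmu-miR-16-5p: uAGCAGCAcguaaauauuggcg
mmu-miR-195a-5p: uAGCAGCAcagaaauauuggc
mmu-miR-208a-3p: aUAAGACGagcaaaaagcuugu
mmu-miR-208b-3p: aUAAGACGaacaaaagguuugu
mmu-miR-499-5p: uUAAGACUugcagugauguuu
mmu-miR-206-3p: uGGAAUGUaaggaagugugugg
mmu-miR-133b-3p: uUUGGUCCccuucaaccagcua
mmu-miR-9-5p: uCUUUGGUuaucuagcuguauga
mmu-miR-132-3p: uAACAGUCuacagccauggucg
mmu-miR-212-3p: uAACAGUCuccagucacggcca
mmu-miR-21a-5p: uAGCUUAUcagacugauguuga
mmu-miR-218-5p: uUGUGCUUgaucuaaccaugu

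miR-302b, miR-291a, miR-294 and miR-295 shared the seed AAGUGCU, and the seed of miR-302c was shifted by 1 base. The miR-17 seed AAAGUGC holds most of the same letters. Of 1091 microRNA genes with a position on mm9, 976 also had a mature sequence in the RefSeq table, and seeds were counted among these. By that count 7 had a mature product with AAAGUGC and 5 one with AAGUGCU, and all of these hairpins lay within 10 kb of a peak. Of the 7 loci with AUUGCAC (the miR-25, miR-92 and miR-367 family) 6 lay within 10 kb, as did 6 of the 7 with the miR-130 seed AGUGCAA and all 3 loci of miR-9 (CUUUGGU). The let-7 seed GAGGUAG occurred at 13 loci, of which 7 lay within 10 kb and 2 under a peak, and the miR-15 and miR-16 seed AGCAGCA at 10 loci, of which 5 lay within 10 kb. Fewer were that close for GGAAUGU (miR-206, 1 of 3), UGUGCUU (miR-218, 0 of 3) and UUGGUCC (miR-133b, 0 of 1). Counts for the other printed seeds were UAAGACG 1 of 2, AGCUUAU 1 of 2, UAAGACU 1 of 1, AGUGCUU 1 of 1 and AACAGUC 2 of 2. The loci of miR-1a and miR-133a, without a sequence here, are not in these counts. Of all 1091 positioned genes 46.2% lay within 10 kb of a peak and 9.35% under one, and the shares for let-7 and for miR-15 and miR-16 were close to these. Loci of 1 seed in 1 cluster share their nearest peak, so these counts are smaller by cluster: the 7 loci with AAAGUGC fell into 4 clusters.

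Genomic stretches that hold listed hairpins under a peak are shown next, because in these peaks the opened DNA includes the hairpin itself. They are from NCBIM37 (mm9), forward strand, 5′ to 3′, with the hairpins in capitals. Mir302b and Mir302c lie on chr3:127248126-127248368, Mir99b and Mirlet7e on chr17:17967137-17967411, and Mirlet7i on chr10:122422676-122422800. Mirlet7i is on the reverse strand, so its hairpin appears here as the reverse complement.
Mir302b and Mir302c: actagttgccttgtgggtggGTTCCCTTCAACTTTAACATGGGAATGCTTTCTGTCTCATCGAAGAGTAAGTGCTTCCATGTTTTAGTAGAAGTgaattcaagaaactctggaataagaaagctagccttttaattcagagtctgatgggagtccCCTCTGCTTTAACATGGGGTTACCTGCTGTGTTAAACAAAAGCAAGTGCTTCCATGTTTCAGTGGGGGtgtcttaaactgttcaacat
Mir99b and Mirlet7e: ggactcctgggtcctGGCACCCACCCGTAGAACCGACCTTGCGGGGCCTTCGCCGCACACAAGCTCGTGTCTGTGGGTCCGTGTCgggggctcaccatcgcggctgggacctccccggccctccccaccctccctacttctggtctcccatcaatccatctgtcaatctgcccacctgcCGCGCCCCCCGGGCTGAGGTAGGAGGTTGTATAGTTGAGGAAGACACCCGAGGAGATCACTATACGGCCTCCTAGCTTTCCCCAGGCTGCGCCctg
Mirlet7i: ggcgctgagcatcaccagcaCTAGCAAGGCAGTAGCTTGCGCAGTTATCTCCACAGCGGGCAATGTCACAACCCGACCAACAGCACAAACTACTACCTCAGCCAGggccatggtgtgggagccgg

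The centres of 3 assigned peaks are shown as examples that contrast in base composition and position: a CpG-rich region, with a ratio near the top of the set, just upstream of a cluster, a CpG-poor region upstream of a pluripotency cluster, and an intronic region far from the hairpin. The strand and build are as above. Capitals mark every match of the letters searched, GGGCGG for SP and KLF factors in the first, AGATAA for GATA factors in the second and GGAATG for TEAD factors in the third, on either strand. The windows are chr14:115440484-115440783, chr3:127233249-127233548 and chr11:35383376-35383675.
centre of the Mir17 peak: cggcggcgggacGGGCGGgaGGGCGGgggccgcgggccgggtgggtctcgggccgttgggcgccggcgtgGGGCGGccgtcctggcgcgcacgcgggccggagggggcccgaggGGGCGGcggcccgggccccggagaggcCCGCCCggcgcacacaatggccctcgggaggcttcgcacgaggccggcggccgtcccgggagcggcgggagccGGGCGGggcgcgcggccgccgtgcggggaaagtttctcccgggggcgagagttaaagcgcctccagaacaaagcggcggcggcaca
centre of the Mir302b upstream peak: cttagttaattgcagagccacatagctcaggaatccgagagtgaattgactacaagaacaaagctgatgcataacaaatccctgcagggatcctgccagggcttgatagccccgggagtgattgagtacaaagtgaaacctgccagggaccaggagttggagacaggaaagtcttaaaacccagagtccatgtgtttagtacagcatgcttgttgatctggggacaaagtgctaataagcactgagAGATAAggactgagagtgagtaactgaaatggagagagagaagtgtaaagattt
centre of the Mir218-2 nearest peak: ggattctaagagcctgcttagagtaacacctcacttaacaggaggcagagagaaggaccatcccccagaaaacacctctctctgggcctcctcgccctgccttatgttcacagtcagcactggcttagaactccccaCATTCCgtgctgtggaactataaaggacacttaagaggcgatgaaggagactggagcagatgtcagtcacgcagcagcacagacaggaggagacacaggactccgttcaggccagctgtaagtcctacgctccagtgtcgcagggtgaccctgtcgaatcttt

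Peaks assigned to microRNA genes lay far from the start compared with other peaks. Their median distance was 16821 bp (95% confidence interval 14651 to 20472 bp), with quartiles at 4365 and 51586 bp, and the median of the other 25581 peaks was 3567 bp (3083 to 4130 bp). Only 79 peaks (12.1%) had a midpoint within 1 kb of the hairpin 5′ end, whereas 45.7% of other peaks lay within 1 kb of their start, a difference of -33.6 percentage points (95% Newcombe interval -35.9 to -30.8). A further 167 lay at 1 to 10 kb, 238 at 10 to 50 kb and 167 beyond 50 kb. The share between 10 and 50 kb was 36.6% against 24.1%, and that beyond 50 kb 25.7% against 16.7%. Distances of microRNA peaks start at a hairpin and those of most other peaks at a transcription start, so the features measured from differ.

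**Figure D1:**
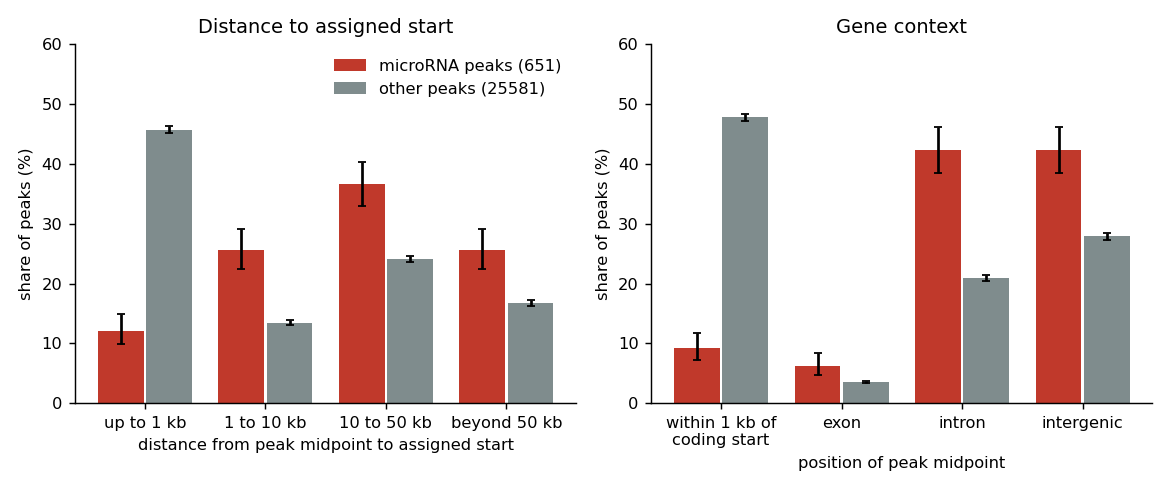
Share of peaks (%) by distance from the midpoint to the assigned start (left) and by position of the midpoint in GENCODE genes (right), for 651 microRNA peaks (red) and 25581 other peaks (grey). Bars are shares and error bars 95% Wilson intervals. Of the microRNA peaks 9.22% lay within 1 kb of a coding start, and introns and intergenic sequence held 42.2% each.

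Position relative to protein coding genes differed in the same way. Midpoints of 60 microRNA peaks (9.22%, 7.23 to 11.7%) were no more than 1 kb from a protein coding start, against 47.7% of other peaks. A peak at a coding start is assigned to that gene unless a hairpin lies nearer, so the rule that assigns peaks sets part of this difference. Introns held 275 midpoints (42.2%, 38.5 to 46.1%) and intergenic sequence another 275, against 20.8% and 27.9% of other peaks. Exons held 41 (6.30% against 3.54%). Within the class at 10 to 50 kb, where few peaks of either kind were at coding starts, introns held 52.1% of microRNA peaks against 40.2%, a difference of 11.9 points (5.50 to 18.3), and intergenic sequence 38.7% against 48.9%, a difference of -10.3 points (-16.4 to -3.84). At 1 to 10 kb the intron difference was 1.46 points (-5.65 to 9.15) and the intergenic one 4.55 points, and both intervals included 0. Beyond 50 kb they were 7.11 points (-0.330 to 14.8) and -6.02 points (-13.7 to 1.59). The higher intergenic share over all peaks was therefore not found within the classes beyond 10 kb, and the intron difference excluded 0 in the 10 to 50 kb class and within 1 kb (21.5% against 0.718%). Within 1 kb the intergenic share was also higher, 26.6% against 2.10%, a difference of 24.5 points (16.0 to 35.2). For 320 peaks the assigned microRNA had a protein coding host, and 229 of them (71.6%, 66.4 to 76.2%) lay inside that host gene.

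MicroRNA peaks were on average narrower and poorer in CpG than other peaks, and both differences were smaller within classes of distance. The median width was 967 bp (933 to 987 bp) against 1084 bp (1078 to 1091 bp). Within 1 kb the medians were 1278 bp (1043 to 1544 bp) and 1326 bp, with overlapping intervals, and at 1 to 10 kb 1054 and 1012 bp. From 10 to 50 kb microRNA peaks had the higher median (968 bp, 917 to 994 bp, against 910 bp, 901 to 918 bp), with intervals that met at their edges, and beyond 50 kb the lower one (780 bp, 745 to 828 bp, against 842 bp, 832 to 853 bp). The observed over expected ratio of CpG, which is high in CpG island promoters and low elsewhere, had a median of 0.251 against 0.448. It fell from 0.512 (0.407 to 0.600) within 1 kb to 0.191 (0.175 to 0.211) beyond 50 kb. Other peaks within 1 kb were at 0.685 and those beyond 50 kb at 0.218. The median GC content was 51.7% against 54.6%.

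**Figure D2:**
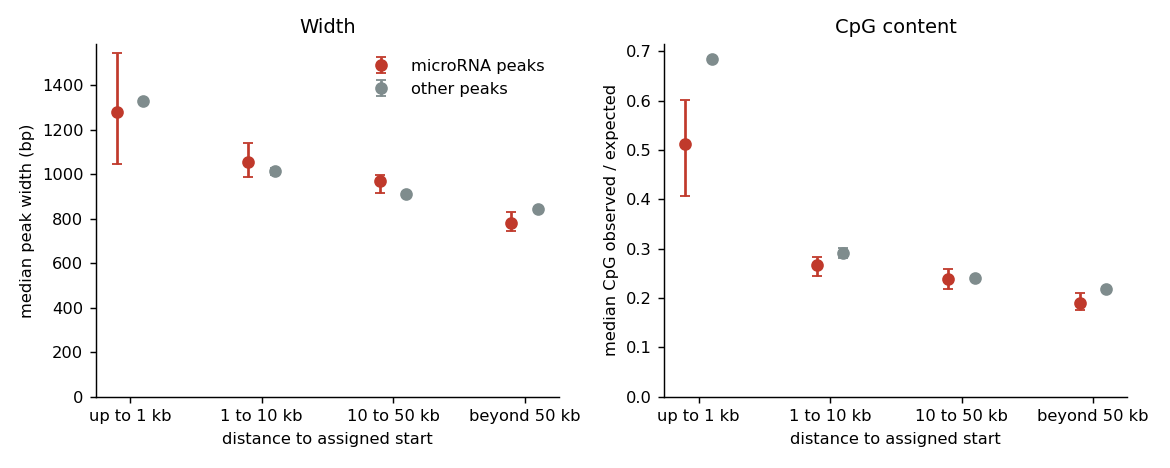
Median width in bp (left) and median CpG observed over expected ratio (right) by class of distance to the assigned start, with 95% order-statistic intervals. Red points are microRNA peaks (79, 167, 238 and 167 in the 4 classes), grey points all other peaks. The CpG ratio of microRNA peaks within 1 kb (0.512) lay below that of other peaks (0.685), and the classes at 1 to 10 kb and 10 to 50 kb were close.

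Motif letters were counted in the 300 bp at the centre of each peak, on both strands. The TEAD letters GGAATG were found in 154 microRNA peaks (23.7%) and in 16.3% of other peaks, a difference of 7.33 points (4.19 to 10.8). The GATA letters AGATAA stood in 12.4% against 9.42%, and the Isl1 letters CTAATG in 8.60% against 6.49%. The Isl1 difference, 2.12 points (0.174 to 4.54), was 0.927 points (-0.196 to 2.59) in the central 100 bp and 1.82 points (-1.45 to 5.37) over whole peaks, and both of these intervals include 0. The SP and KLF letters GGGCGG, common in CpG-rich promoters, stood in 24.0% against 42.3%. Most of these differences shrank within a class of distance. The intervals of the GATA and Isl1 differences included 0 in each of the 4 classes. Within 1 kb TEAD letters remained more frequent in microRNA peaks (17 of 79, 21.5%, against 9.24%, difference 12.3 points, 4.63 to 22.6). The sets are unlike in that class, where 41.8% of microRNA peaks and 96.4% of other peaks were at coding starts. Of other peaks in the farther classes, 19.8 to 25.0% held the TEAD letters. In the other 3 classes the interval of the TEAD difference included 0. GGGCGG was less frequent within 1 kb (46.8% against 66.7%) and at 1 to 10 kb, and more frequent at 10 to 50 kb (25.6% against 19.8%). The GATA letters were not more frequent in the central 100 bp, where the difference was -0.415 points. A letter match is a description of sequence and not of binding.

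Most microRNA symbols had a single peak. Of 377 symbols, 223 had 1 peak, 91 had 2, 35 had 3 and 28 had 4 or more, a mean of 1.73 against 1.71 for the 14974 other symbols. Mir148a and Mir1904 had the most, with 8 each. The peaks of Mir148a began with a 1758 bp peak 1063 bp upstream, its edge 185 bp from the hairpin, and the other 7 lay downstream, at 50044 to 222438 bp in intergenic sequence. Mir1904 is encoded within Pde4d, a cyclic AMP phosphodiesterase gene, together with Mir582, and the pair carried 14 peaks, of which 12 lay inside Pde4d. Mir205, an epithelial microRNA, had 7 peaks, all upstream, with midpoints from -2755 to -224796 bp and all between 531 and 871 bp wide. Mir6406 also had 7, and Mir378b, Mir6351, Mir692-3 and Mir6995 had 6 each, like Mir582. Mir9-3hg, the host transcript of a neural microRNA, had 5, as did Mir1901, Mir3089, Mir6368 and Mir6398.

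The widest microRNA peaks were found at Mir3089 (4689 bp, intronic), Mir99b (4642 bp), Mir92b (4150 bp), Mir26b (4056 bp) and Mir6979 (3696 bp), followed by Mir22hg (3632 bp), Mir7671 (3208 bp), Mir6910 (3079 bp), Mir6991 (2923 bp) and Mir6944 (2874 bp). Those of Mir92b and Mir22hg were within 1 kb of a protein coding start, at Mtx1 and Tlcd2. The peak of Mir26b, encoded in the phosphatase gene Ctdsp1, had its midpoint 2179 bp downstream of the hairpin 5′ end.

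Because assignment follows the nearest start, hairpins were also compared with every peak, whatever gene it was assigned to. Of 1091 microRNA genes, 102 (9.35%, 7.76 to 11.2%) had the hairpin under a peak, while peaks covered 1.19% of the bases of the chromosomes. A peak lay within 1 kb of 165 hairpins (15.1%), within 10 kb of 504 (46.2%, 43.3 to 49.2%) and within 50 kb of 835 (76.5%, 73.9 to 79.0%). Of the 102 covered hairpins, 59 were in a peak assigned to the same microRNA, 6 in one assigned to another microRNA symbol and 37 (36.3%) in one assigned to another gene. The covering peak had its midpoint within 1 kb of a protein coding start for 66 (64.7%). Hairpin and peak centres were a median of 275.5 bp apart, with quartiles at 103.75 and 435.5 bp, and 96 of the 102 hairpins lay wholly inside the peak. Of the 504 hairpins with a peak within 10 kb, the nearest peak was assigned to a microRNA for 235 (46.6%).

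Covered hairpins fell into those at promoters of host or neighbouring genes and those away from coding starts. At coding starts were Mir22 and Mir191, Mir484, Mir320, Mir423 and Mir574, the pair Mir130b and Mir301b, and Mir92b, a member of the family with the seed AUUGCAC. Away from coding starts were Mir302b and Mir302c, Mirlet7i, the pair Mir99b and Mirlet7e, Mir212 and Mir132, Mir9-3, Mir128-2, Mir135b and Mir210, a microRNA induced by low oxygen. The peak over Mir210 was 1678 bp wide and reached from -1212 to 465 bp around the hairpin 5′ end. For Mir99b and Mirlet7e the 4642 bp peak reached from -4382 to 259 bp around the Mir99b 5′ end and stopped 3 bp past the Mirlet7e hairpin. The sequence given for that pair above is the downstream end of this peak.

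**Figure D3:**
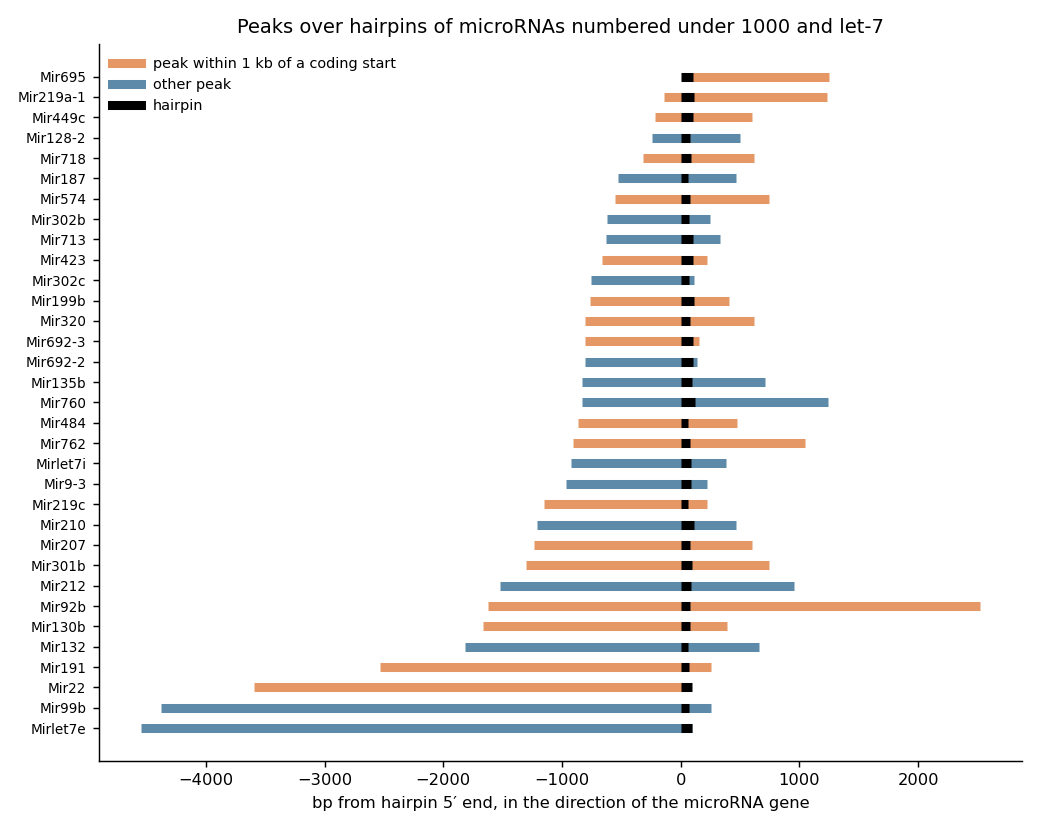
Extent of each peak (coloured bar) around the hairpin (black) for the 33 covered hairpins of microRNAs numbered under 1000 and let-7, in bp from the hairpin 5′ end in the direction of the gene. Orange bars are peaks within 1 kb of a protein coding start, blue bars other peaks. Most bars extend further upstream than downstream of the hairpin, the longest to -4546 bp at Mirlet7e.

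MicroRNA genes with numbers of 1000 or more, which were annotated later, made up 434 of the 651 peaks (66.7%) and 262 of the 377 symbols. Their hairpins were covered more often (69 of 585, 11.8%, 9.43 to 14.7%, against 33 of 506, 6.52%, 4.68 to 9.02%), and a peak lay within 10 kb of 53.8% against 37.4%. They were also more often encoded in a protein coding host (68.2% against 42.1%). Mir466f-1, numbered under 1000, opens a cluster of 63 hairpins without a peak within 50 kb. The split by number was not counted by cluster. These splits were chosen after the values were seen and carry no test.

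A promoter of a host gene can drive a hairpin from far away, so peaks over host starts were counted. Of 612 hairpins in protein coding hosts, 445 (72.7%, 69.0 to 76.1%) had a host with a peak over an annotated start. Counted by host the share was 414 of 512 (80.9%, 77.2 to 84.0%), against 55.9% of all 22225 protein coding genes. A peak over any annotated start of a gene counted, and the number of starts per gene was not adjusted for. Among 315 hosted hairpins with no peak within 10 kb, 194 (61.6%, 56.1 to 66.8%) had a peak over a start of the host. With no peak within 50 kb it was 43 of 127 (33.9%, 26.2 to 42.5%). Hairpins that share a host are counted singly in these shares, so a single host can weigh heavily. The cluster of 63 hairpins that begins with Mir466f-1, within Sfmbt2, had no peak within 50 kb. Neither share was counted by host, so they cannot be set against the 55.9% of all coding genes. Together 491 of 612 (80.2%) had a peak over the host start or within 10 kb. Mir218-2 is an example, with its hairpin 495592 bp from the start of Slit3, a guidance gene of the slit family, and a 1499 bp peak over that start. Slit2, the host of Mir218-1, had a 1951 bp peak over its start, 240787 bp from the hairpin. Peaks also covered the starts of Mcm7 (Mir106b, Mir93 and Mir25), Smc4 (Mir15b and Mir16-2), Egfl7 (Mir126a), Wdr82 (Mirlet7g), Huwe1 (Mirlet7f-2 and Mir98), Arpp21 (Mir128-2) and Ctdspl (Mir26a-1). The starts of the 3 myosin hosts were not covered. The nearest peak was 1835 bp from the start of Myh7b, 17937 bp from that of Myh6 and 19828 bp from that of Myh7.

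Each list of microRNAs below is read beside all 1091 positioned genes, of which 31.9% had an assigned peak, 9.35% a covered hairpin, 46.2% a peak within 10 kb and 76.5% one within 50 kb. Of the 10 muscle microRNAs, 3 had an assigned peak, none a covered hairpin, 4 any peak within 10 kb and 8 within 50 kb, and with 10 genes none of these shares could be told from that of all genes. Mir133a-2 had the nearest peak, 1592 bp wide, at chr2:180134104-180135695, with its midpoint 1815 bp downstream and its edge 917 bp from the hairpin. Upstream of its partner Mir1a-1 the start of the host transcript Mir1a-1hg was covered by a 1546 bp peak (chr2:180119529-180121074, midpoint -8 bp), whose edge lay 2679 bp from the hairpin. The cluster of Mir1a-1 and Mir133a-2 thus had a peak at the start of its transcript and one just after the last hairpin. Mir499 had a 921 bp peak in an intron of Myh7b, 2797 bp upstream. Mir1a-2 had 4 peaks, all upstream, at -41455, -97558, -118376 and -119777 bp, and between 579 and 1192 bp wide, with CpG ratios of 0.111 to 0.126. The first of these was also the peak nearest to Mir133a-1 and Mir1b, at gaps of 43734 and 41152 bp. Of the 4, 1 held the Isl1 letters in its central 300 bp, 2 the GATA letters and 1 the TEAD letters. Mir208a lay 9090 bp and Mir208b 35730 bp from a peak assigned to Cmtm5. The skeletal muscle pair Mir206 and Mir133b was farthest, 140730 and 136925 bp from a peak at the start of Mcm3.

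Of the microRNAs of heart growth and fibrosis, 8 of 24 had an assigned peak, and 13 of 23 with a position had a peak within 10 kb (56.5%, 36.8 to 74.4%), an interval that includes the 46.2% of all genes. None of their hairpins was covered. The pair Mir34b and Mir34c lay 1166 and 638 bp from a promoter peak of 4833427G06Rik, and Mir138-1 had 1 peak at 13151 bp. Mir21a, a microRNA of cardiac fibroblasts, had a 987 bp peak at -2981 bp and a second at 6972 bp. The first held the Isl1 letters in its central 300 bp. It also covered an annotated start of its host Vmp1, not necessarily the main start of that gene. Mir130a had a 2678 bp peak at -2296 bp, the widest of the list, and a 935 bp peak at -16085 bp. Mir34a, a microRNA of the p53 response, had peaks at 4612 and -19442 bp. Mir29a, which targets collagen transcripts, had peaks at 9511 and 29499 bp, and Mir29b-1 of the same cluster had 1 at -12798 bp. Mir218-2 had 4 peaks at -188679, -108585, -46793 and 50674 bp, 648 to 1137 bp wide, and all but the last upstream. The nearest is the TEAD example printed above. Mir15a, a cell cycle microRNA, had a 1601 bp peak at -16515 bp with a CpG ratio of 0.983, 188 bp from the start of the noncoding RNA Dleu2. Other cell cycle members had peaks assigned elsewhere: Mir195a and Mir497 lay 2018 and 2353 bp from a promoter peak of 0610010K14Rik, and Mir322 and Mir503 lay 2502 and 2797 bp from a peak of C430049B03Rik. Mir199a-2 and Mir214 had no peak closer than 203732 bp.

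Among the smooth muscle and endothelial microRNAs, 4 of 12 had an assigned peak and 7 of 12 a peak within 10 kb (58.3%, 32.0 to 80.7%, against 46.2% of all genes). Mir143 and Mir145a, neighbours that act in smooth muscle, had a 2207 bp peak at -3756 bp and a 1100 bp peak at 4096 bp, on opposite sides of the pair. Mir23a, first of a cluster with Mir27a and Mir24-2, had 2 wide upstream peaks, 2103 bp at -5168 bp and 2411 bp at -10401 bp. Mir126a, an endothelial microRNA, lay 1859 bp from a peak in its host Egfl7. Mir222 had 1 peak at -90910 bp with 6 matches of GGGCGG in its centre.

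All 10 positioned pluripotency hairpins had a peak within 10 kb, against 46.2% of all genes, but they lie in only 2 clusters. Mir302b had an 873 bp peak at -186 bp, which covered Mir302b and Mir302c and ended 17 bp before Mir302a. Mir302d and Mir367 lay 145 and 254 bp from its edge. The 5 hairpins lie antisense in an intron of Larp7, and the peak had a low CpG ratio (0.254). A second peak, 849 bp wide, lay at -14748 bp and is the GATA example printed above. Mir290a had a 764 bp peak at -895 bp and 2 more at -12077 and -19682 bp, all with CpG ratios of 0.197 to 0.326. The other listed hairpins of that cluster lay 806 to 2660 bp from the nearest of these. Beside these, the pluripotency gene Pou5f1 had no assigned peak, and the nearest of 2 peaks of Nanog lay at 4766 bp. The part of undifferentiated cells was not tested.

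The miR-17 to miR-92 cluster and its paralogs, which promote proliferation, had all 15 hairpins within 10 kb of a peak, against 46.2% of all genes and in 3 clusters, but only Mir17 had an assigned peak. That peak was 2646 bp wide at -2260 bp, with a GC content of 71.6%, a CpG ratio of 0.985 and 30 matches of GGGCGG, of which 6 are marked in the sequence printed above. The 6 hairpins from Mir17 to Mir92-1 lay 937 to 1693 bp from its edge. Mir106b, Mir93 and Mir25 lay 3703 to 4119 bp from a promoter peak assigned to Cops6. On the X chromosome Mir106a to Mir363 lay 2627 to 3427 bp from a 774 bp peak assigned to Kis2.

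The let-7 family, which rises as cells differentiate, had a peak within 10 kb at 6 of 12 hairpins (50.0%, 25.4 to 74.6%), and 3 had an assigned peak, shares near the 46.2% and 31.9% of all genes. Mirlet7i had 4 peaks. The one over the hairpin was 1307 bp wide at -270 bp, with the highest GC content (73.4%) and CpG ratio (1.07) of all 651 microRNA peaks and 4 GGGCGG matches in its centre, and the others lay at -27849, 72700 and 98038 bp. Mirlet7a-1 had a 2109 bp peak at -7988 bp, which was also the nearest to Mirlet7f-1, and Mirlet7d a 464 bp peak at 7454 bp. Mirlet7g lay 6940 bp from the start peak of Wdr82. Mirlet7a-2, Mirlet7f-2 and Mir98 had no peak within 50 kb.

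Of 13 listed neural microRNAs, 6 had an assigned peak (46.2%, 23.2 to 70.9%, against 31.9% of positioned genes). Mir124-1, Mir124-2 and Mir124-3 could not be placed on mm9, and no peak carried their symbols. Of the 10 positioned neural hairpins, 9 had a peak within 10 kb (90.0%, 59.6 to 98.2%) and 5 lay under one, against 46.2% and 9.35% of all genes. A 2480 bp peak at -283 bp of Mir212 covered both Mir212 and Mir132, which share the seed AACAGUC, and held 10 matches of GGGCGG. The hairpin of Mir9-3 lay under a 1185 bp peak at -371 bp, Mir9-1 lay 636 bp from a peak assigned to Mir3093 and had its own at 5480 and 15731 bp, and Mir9-2 had 1 at 6328 bp. Mir128-2 lay under a 746 bp peak at 132 bp, and a second lay 200049 bp downstream. Mir137 had a 468 bp peak at -2308 bp. Mir219a-1 was covered by the promoter peak of Ring1. Sox1 and Pax6 also had peaks at their starts, and the part of neural cells in these counts was not tested.

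Of the remaining lists, the epithelial one had a peak within 10 kb of 6 of 7 hairpins (85.7%, 48.7 to 97.4%, against 46.2% of all genes). The cluster of Mir200a, Mir200b and Mir429 lay 3069 to 4832 bp from a peak of Gm13648, and Mir200c and Mir141 lay 5449 and 5041 bp from a promoter peak of Phb2. The blood list had 3 of 8 within 10 kb (37.5%, 13.7 to 69.4%), Mir142, Mir144 and Mir451a. Mir142 had an 1831 bp peak at -7556 bp and lay 6197 bp from one assigned to Bzrap1, and Mir144 and Mir451a lay 6909 and 6738 bp from the promoter peak of Eral1. Mir181a-1 had 1 peak at -67892 bp. Mir223 lay 146245 bp from any peak. No liver or gut microRNA had an assigned peak, and the liver microRNA Mir122 lay 100056 bp from the nearest, while Mir192 and Mir194-2 lay 5635 and 5839 bp from a peak assigned to Ehd1. All 6 microRNAs of the Hox clusters had a peak within 10 kb (interval 61.0 to 100%), 5 of them one assigned to a Hox gene. Mir10a lay 818 bp from a 2402 bp peak of Hoxb4, and Mir196a-1 had its own 749 bp peak at -3479 bp. In the imprinted Dlk1-Dio3 domain none of 36 listed microRNAs had an assigned peak and 5 (13.9%, 6.08 to 28.7%) had one within 10 kb, yet 33 had one within 50 kb. The 5 (Mir377, Mir409, Mir412, Mir369 and Mir410) share a 1916 bp peak assigned to Mir3072, which is not among the 36.

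**Figure D4:**
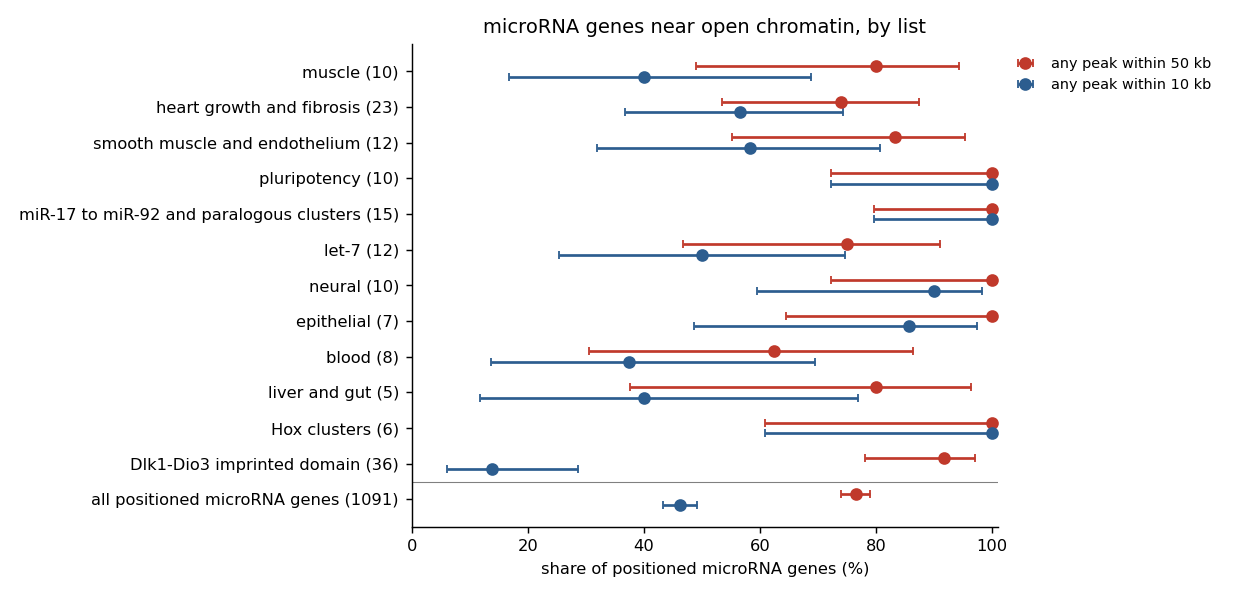
Share of positioned microRNA genes (%) with any peak within 50 kb (red) or 10 kb (blue), by list with the number of genes in parentheses and for all 1091 genes. Lines are 95% Wilson intervals over genes, which are clustered and not independent. The pluripotency, miR-17 and Hox lists had every gene within 10 kb, and the Dlk1-Dio3 list 13.9%.

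**Figure D5:**
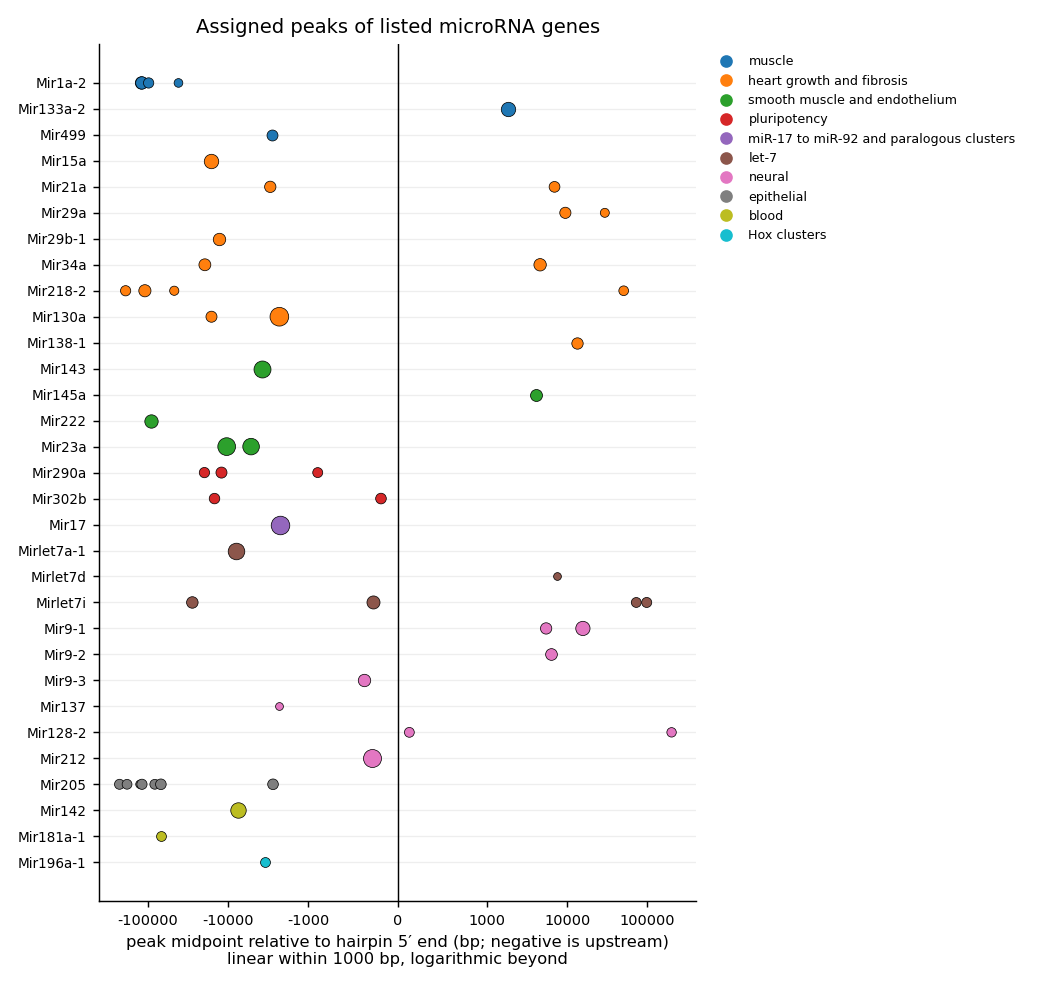
Assigned peaks of listed microRNA genes, as the position of the midpoint in bp from the hairpin 5′ end (negative is upstream). The axis is linear within 1000 bp and logarithmic beyond, the area of a point grows with peak width, and colours give the list. Mir205, Mir1a-2, Mir290a, Mir302b, Mir130a and Mir23a had several peaks, all upstream. Midpoints of Mir302b, Mir290a, Mirlet7i, Mir9-3, Mir128-2 and Mir212 lay within 1000 bp.

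The largest hairpin clusters showed opposite extremes. The 63 hairpins of the cluster that begins with Mir466f-1, within Sfmbt2 on chromosome 2, lay 91583 to 142794 bp from a peak, and the 19 of the Mir743 cluster on the X chromosome lay 123401 to 185696 bp away. All 39 hairpins of the Mir379 cluster on chromosome 12 had a peak within 50 kb, at gaps of 1401 to 40236 bp. The X chromosome had 8 of its 621 peaks assigned to microRNA genes (1.29%), against 2.51% of peaks on the autosomes. Peaks of any kind were sparser on the X than on chromosome 3, the autosome nearest in length. The counts were 621 on 166650296 bp and 1253 on 159599783 bp. The part of this density in the shares on the X was not tested. A peak lay within 50 kb of 41 of 87 hairpins on the X (47.1%, 37.0 to 57.5%) and of 794 of 1004 on the autosomes (79.1%, 76.5 to 81.5%). Counted by cluster, the shares were 26 of 45 (57.8%, 43.3 to 71.0%) and 660 of 790 (83.5%, 80.8 to 86.0%). Among autosomes, the share of peaks assigned to microRNA genes was lowest on chromosome 17 (1.13%) and on chromosome 9 (1.59%), and it was highest on chromosome 18 (36 of 756, 4.76%, 3.46 to 6.52%).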

How the data were processed

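ATAC-seq was performed on 2 replicates of day 5 CPCs. Per the study's methods, the authors mapped reads to mm9 with bowtie2, removed improper pairs with SAMtools and duplicates with Picard 1.136, called peaks per replicate with MACS14 without a fitted model and with a fixed shift, dropped ENCODE blacklisted regions and used bedtools 2.15 to keep regions called in both replicates (minimum overlap 1 bp). A correction for the Tn5 cut position beyond that shift is not described, so edges are approximate, and a width also depends on the depth of the replicate it came from. HOMER assigned the closest start, as stated for ChIP-Seq. The authors deposited positions and distances in bp, with no score, signal or count, so depth per sample is unknown.

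Distinct intervals were counted once and are given 1-based. MicroRNA genes were placed on NCBIM37 by exact match of 1005 RefSeq hairpins (986 matched once), which gave 948 positions, by GENCODE vM1 (129) or by deposited distances (14). Of 47 mature names sought in RefSeq, 42 were found. Hairpins within 10000 bp formed a cluster, and a gap is the distance from hairpin to peak edge. Context followed GENCODE, with coding starts within 1 kb first. Python 3.11.15, pandas 2.3.3 and scipy 1.17.1 were used, and scripts were tested on simulated data. Shares carry 95% Wilson intervals, differences Newcombe intervals and medians order-statistic intervals. The peaks, the 12 microRNA lists and the comparisons were chosen with earlier results of these data known, and the counts at host starts and by symbol number were added after the data were seen. Genes were named, singly or as part of their cluster or list, from the listed microRNAs with an assigned peak, a covered hairpin or a peak within 10 kb, the muscle list in full, the 10 symbols with most peaks (with ties), the 10 widest peaks and peaks over hairpins. Listed microRNAs without any such peak (Mir223, Mir122, Mir199a-2, Mir214, Mirlet7a-2, Mirlet7f-2 and Mir98) were named outside that rule, after their values were seen, to give the far end of their lists. Also outside it were Mir218-1 and Mir26a-1, as examples of host starts, and Mir124-1, Mir124-2 and Mir124-3, which could not be placed. The largest clusters were named by their first hairpin. Alternatives concerned peak width, duplicated lines, host transcripts, clusters, promoter size, motif window and distance.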

Additional observations from a re-analysis of the deposited data

How the results depend on the processing

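The 651 peaks became 241 when the list was limited to peaks wider than the median of all peaks (1081 bp), with a median width of 1479 bp and 51.0% within 10 kb. With only the nearest peak of each gene there were 377, with a median width of 994 bp and 58.4% within 10 kb. Counting starts of every gene type raised the promoter share from 9.22% to 12.4%. With 1 gene per cluster, 11.4% of hairpins were covered and 50.4% had a peak within 10 kb, and with the wider peaks 6.87% and 32.2%. The median GC content was 54.3% in the central 300 bp. The GATA difference turned to -0.415 points in the central 100 bp and was 0.254 over whole peaks, the TEAD difference was 2.86 and 4.13 points, and the SP and KLF difference was -11.1 points in the central 100 bp. Over all lists 87.0% of positioned genes had a peak within 50 kb, 55.8% within 10 kb, and 19.5% of listed genes an assigned peak. Of 42 alternatives for the main results, 23 stayed within the limit set, 18 moved outside it and 1 reversed. The limit was the interval of the value reported, except for the number of peaks, where it was a fixed fold change. The cause of these moves was not tested. Neither replicate could be left out, and unknown depth limits every count of peaks. No paired analysis was possible because the list holds no value for a single replicate and there was 1 group.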
